A study of Mus musculus with 16 samples.

Results

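The respiratory chain subunit genes examined here are the nuclear genes that encode protein subunits of the 4 electron-carrying complexes of the inner mitochondrial membrane. They are the genes whose symbol starts with Ndufa, Ndufb, Ndufc, Ndufs, Ndufv (assembly factors apart), Uqcr, Cox4i, Cox5, Cox6, Cox7 or Cox8. Sdha, Sdhb, Sdhc and Sdhd complete the set, which was chosen with earlier results of these data known. Of 65 such symbols on the array, 58 passed a filter on low signal, out of 10609 genes that passed it in all. The 58 comprised 34 genes of complex I, 4 of complex II, 8 of complex III and 12 of complex IV. Grouping followed the symbol, so Ndufa4, now known as a complex IV subunit, was counted with complex I.

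Complex I takes electrons from NADH and complex II takes them from succinate. Complex III passes them from ubiquinol to cytochrome c, and complex IV hands them to oxygen, while complexes I, III and IV pump protons that ATP synthase then uses. In beta cells, respiration raises the ATP to ADP ratio after a rise in glucose, which closes potassium channels, depolarises the membrane and lets calcium in through L-type channels to trigger insulin release.

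The cells were R7T1, a mouse beta-cell line, in 4 treatments sampled after 0.5, 2, 6 and 24 h. The treatments were the solvent DMSO, the compound labelled BayK8644(2a), Exendin-4, and BayK8644(2a) with Exendin-4. BayK8644 is a dihydropyridine agonist of L-type calcium channels, and exendin-4 is a peptide agonist of the GLP-1 receptor. What "(2a)" stands for is not in the labels, and the compound is called BayK8644 below on the reading that it is that agonist. No source used here states a dose. Every treatment and time had 1 array, 16 in all, so the 4 times took the place of replicates within a treatment. Separate cultures are not mentioned in the labels, and the p-values therefore reflect how far these arrays varied, which can be technical variation alone.

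Levels are log2 of the deposited GCRMA intensity, and a difference of 1 is a doubling. The filter kept a probe set that reached log2 4 on at least 2 arrays. The 75th percentile of intensity lay between 523 and 556 on the 16 arrays, and the 3' minus 5' difference of the Actb control probe sets lay between 0.59 and 0.80. Of 8 beta-cell markers, 7 passed the filter: Ins2, an insulin gene, lay between 15.60 and 15.79 and Pdx1, a beta-cell transcription factor, between 13.22 and 13.43, while Ucn3 stayed between 2.84 and 2.93. In a bulk sample of this kind, fewer cells of a type and less RNA per cell cannot be told apart.

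The subunit genes gave strong and even signals. The mean level of 54 of the 58 was above 11, and their median level was 13.76, against 9.90 over all genes tested. Between its lowest and highest array a subunit gene differed by a median of 0.27, and 51 of 58 (87.9%) stayed within a range of 0.5. Over all genes tested the median range was 0.50 and 49.8% stayed within 0.5. Over the 1692 genes with a mean level of 12 or more, the median range was 0.34 and 80.0% stayed within 0.5. Their median level was 12.88, below that of the members, and most members are among them. Saturation of strong signals was not tested, and it would make a range look smaller. Probe sets differ in how well they bind, so a level places a gene on this array and does not rank transcripts.

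Complex I subunits spanned mean levels from 8.77 for Ndufb1, an accessory subunit, to 15.18 for Ndufa5, an accessory subunit of the peripheral arm. Ndufs1 and Ndufv1, which carry iron-sulphur clusters and, in Ndufv1, the flavin where NADH is oxidised, lay between 11.90 and 12.11 and between 13.14 and 13.34. Ndufab1, the mitochondrial acyl carrier protein, lay between 14.16 and 14.35, and Ndufa4 between 14.12 and 14.40. The narrowest range of all members was 0.10, in Ndufb11, and 32 of the 34 complex I genes stayed within 0.5.

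In complex II, Sdha, the flavoprotein that oxidises succinate, lay between 11.71 and 11.91, and Sdhb, the iron-sulphur subunit, between 12.33 and 12.73. The membrane anchors Sdhc and Sdhd lay between 12.60 and 13.04 and between 11.93 and 12.20. In complex III, the core proteins Uqcrc1 and Uqcrc2 lay between 12.21 and 12.56 and between 14.22 and 14.54, and Uqcrfs1, the Rieske iron-sulphur protein, between 13.11 and 13.32.

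Several nuclear subunits of complex IV exist as a general form and a form known from muscle, testis or other tissues. Cox6a1, the general form of subunit VIa, had the highest level of the set and lay between 15.74 and 15.88. Cox6a2, the heart and skeletal muscle form, had the lowest mean, 4.73, and the widest range, 3.11. Cox7a2, the general form of subunit VIIa, lay between 14.48 and 14.68, and Cox7a1, its heart and muscle form, between 9.89 and 10.51. Cox7a2l, a related protein that joins complexes III and IV into supercomplexes, lay between 12.35 and 12.67. Cox4i1, the general form of subunit IV, lay between 14.75 and 15.05.

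The 7 members that did not pass the filter lay between 1.33 and 2.55 on every array. Of these, Cox4i2 (the lung-enriched, oxygen-regulated form of subunit IV), Cox6b2, Cox7b2 and Cox8c (testis forms) and Cox8b (a heart and muscle form) are tissue-restricted complex IV isoforms, and Ndufa4l2 is a hypoxia-inducible relative of Ndufa4. The other is Ndufb4, a general complex I subunit. Probe sets whose annotation joins Ndufb4 to its near copies Ndufb4b and Ndufb4c read up to 13.1, so the value of the single-symbol probe set gives no level for Ndufb4. Cox7c, a general complex IV subunit, read only 5.42 on average, with 5.02 on its next probe set, and Cox6c, another general subunit, read 15.21.

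**Figure D1:**
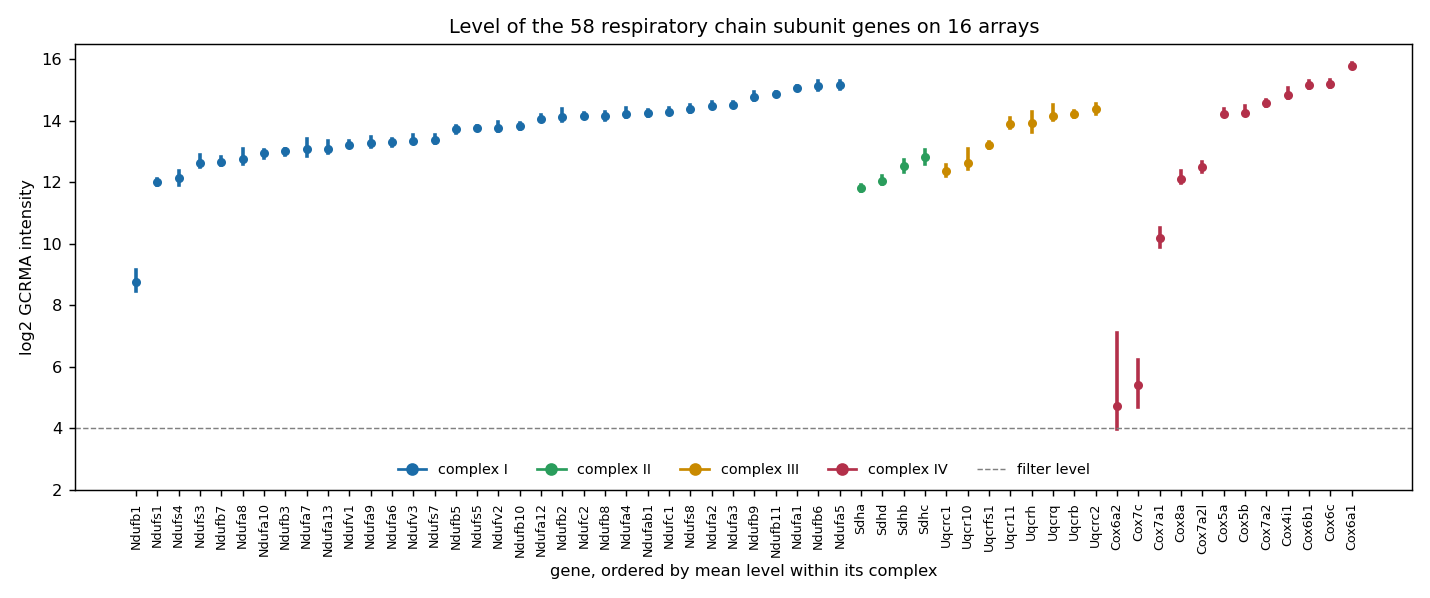
Mean level of each of the 58 genes over 16 arrays (dot) with its lowest and highest array (bar), in log2 GCRMA intensity, ordered by mean within each complex; the dashed line is the filter at log2 4. Of the 58 means, 54 lie above 11, and Cox6a2, Cox7c, Ndufb1 and Cox7a1 lie below.

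RefSeq promoter windows (build GRCm38.p6, from 250 bases before to 50 after a start) were at hand for 48 of the 58 members, and Cox6a2 was not among them. Genes of the respiratory chain are known for promoters with sites for NRF1 and for the ETS-family factor GABP, and the exact letters of 5 motifs were searched on either strand. The NRF1 palindrome GCGCATGCGC was in 2 of 48 member genes (4.17%), Cox6a1 and Uqcrc1, against 2.52% of 8698 tested genes with a window. The ETS core CCGGAAG was in 11 of 48 (22.9%), against 21.5%. For YY1 (AAGATGGCG) the shares were 8.33% and 3.86%, for the cAMP response element (TGACGTCA) 6.25% and 3.82%, and for TATAAA 8.33% and 8.14%. Over all 32851 windows of this length the shares were 0.971% for NRF1, 8.86% for ETS, 1.40% for YY1, 1.79% for the cAMP response element and 13.6% for TATAAA. The member shares rest on between 2 and 11 genes, and a match of letters is no evidence of binding. The 250 bases before the start are shown for Cox6a1, the bright form of subunit VIa, which held an NRF1 and an ETS match, and for Uqcrh, the complex III hinge protein, which held an ETS match. Capitals mark the NRF1 palindrome and the ETS core or its complement, and both are written 5′ to 3′ from the minus strand.
Cox6a1, chr5:115348959-115349208: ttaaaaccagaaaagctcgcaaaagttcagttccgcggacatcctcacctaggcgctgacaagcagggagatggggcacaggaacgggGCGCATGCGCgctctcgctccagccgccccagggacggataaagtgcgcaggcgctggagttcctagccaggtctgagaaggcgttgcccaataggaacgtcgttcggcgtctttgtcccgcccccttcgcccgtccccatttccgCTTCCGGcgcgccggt
Uqcrh, chr4:116075071-116075320: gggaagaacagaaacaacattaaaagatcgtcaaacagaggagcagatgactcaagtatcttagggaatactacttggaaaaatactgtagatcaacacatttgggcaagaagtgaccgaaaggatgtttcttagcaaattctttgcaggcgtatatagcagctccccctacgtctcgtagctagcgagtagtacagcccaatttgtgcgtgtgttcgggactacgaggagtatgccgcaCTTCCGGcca

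The member with the largest response to BayK8644 was Cox6a2, the muscle form of subunit VIa. On the DMSO arrays it read 4.07, 4.31, 3.99 and 4.33 at 0.5, 2, 6 and 24 h, close to the filter level. With BayK8644 it read 4.30, 4.33, 4.95 and 7.10. With exendin-4 it read 4.23, 4.15, 4.32 and 4.32, and with both agents 4.32, 4.30, 5.66 and 7.06. The 4 arrays with BayK8644 at 6 and 24 h were thus the highest of the 16, and the arrays with BayK8644 at 0.5 and 2 h overlapped those without it.

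At 24 h the 2 arrays with BayK8644 were set against the 2 without it in limma, with Benjamini-Hochberg adjustment over all genes. Cox6a2 rose by 2.75 ± 0.14 (log2, SE), which is 6.74-fold, with an adjusted p of 3.3e-05. Its rise ranked 6 among 10609 genes by size. The difference was 2.77 without exendin-4 and 2.74 with it, each from 1 array against 1. At 6 h it rose by 1.15 ± 0.14 (2.22-fold, adjusted p = 0.00394). There the differences were 0.96 without exendin-4 and 1.34 with it, and the call was lost without the 6 h array of exendin-4 or of the combination (adjusted p = 0.0984 and 0.0995). At 0.5 and 2 h the differences were 0.16 (adjusted p close to 1) and 0.08 (adjusted p = 0.899). The effect at 24 h exceeded that at 0.5 h by 2.59 ± 0.20 (adjusted p = 0.00117), the test of the change with time itself. The 8 arrays without BayK8644 lay between 3.99 and 4.33, close to the filter level.

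The general form was not called in any comparison. Cox6a1 read 15.75, 15.77, 15.86 and 15.76 with DMSO at 0.5, 2, 6 and 24 h, and 15.77, 15.75, 15.75 and 15.74 with BayK8644. With both agents it read 15.79, 15.88, 15.85 and 15.88. The other probe set of Cox6a2 stayed between 1.49 and 1.54 on all arrays, below the filter, so the rise rests on 1 probe set. None of 5 heart and skeletal muscle markers (Ckm, Acta1, Myh7, Tnnt2 and Myog) passed the filter, and all lay between 1.92 and 3.08. Their summed level was between 4.88 and 4.93 in every treatment.

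Some markers fixed for other cell types were called with BayK8644, in limma with adjustment over all genes. Irx2, of the alpha, delta and PP cell list, and Cela1, of the acinar and duct list, passed the filter and were not called with it. At 24 h the delta-cell hormone Sst rose by 2.36 ± 0.18 (adjusted p = 0.000218) and the alpha-cell hormone Gcg by 0.56 ± 0.10 (adjusted p = 0.0176). Vim, a filament of mesenchymal cells, rose by 0.97 ± 0.09 (adjusted p = 0.000499). At 6 h Gcg rose by 0.52 (adjusted p = 0.0350) and Vim by 0.47 (adjusted p = 0.0283). Over all times the rises were 0.31 for Gcg (adjusted p = 0.0426) and 0.47 for Vim (adjusted p = 0.0113). The summed level of 5 alpha, delta and PP cell markers lay between 9.26 and 9.70 with DMSO, 9.71 and 9.90 with BayK8644, 9.27 and 9.81 with exendin-4 and 9.74 and 10.19 with both. Of these, 3 of 5 passed the filter, and Hhex and Ppy lay between 1.77 and 1.84. That of 8 mesenchymal, endothelial and leukocyte markers lay between 10.10 and 10.30 with DMSO, 10.30 and 11.28 with BayK8644, 10.17 and 10.31 with exendin-4 and 10.44 and 11.21 with both. Vim was the 1 of these 8 to pass the filter, and the others lay between 1.73 and 2.81. The summed level of 7 acinar and duct markers lay between 9.05 and 9.66 over all treatments, with Cela1 alone above the filter. The part of other cell types in the Cox6a2 result was not tested.

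**Figure D2:**
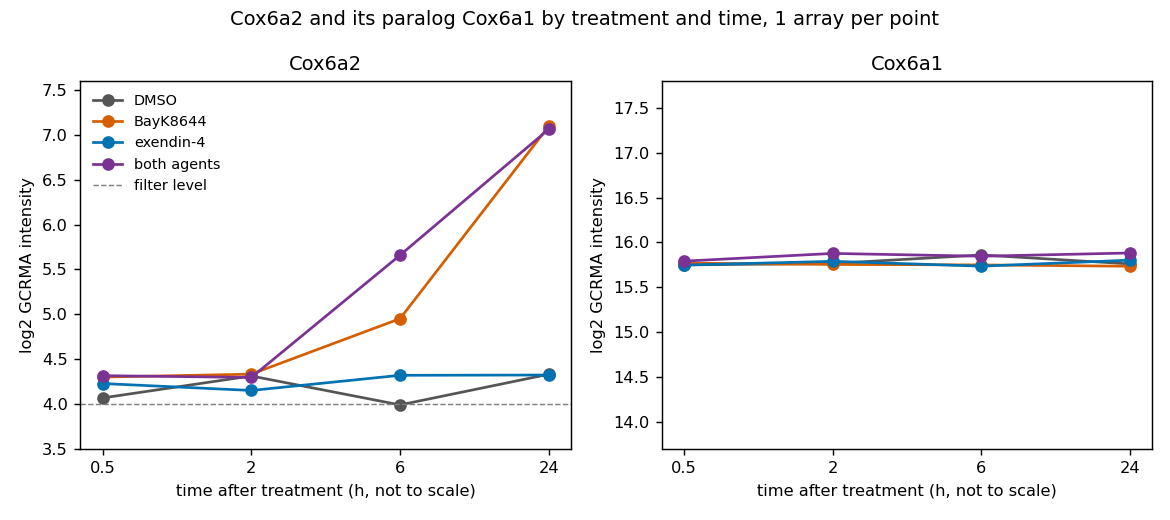
Level of Cox6a2 (left) and of its paralog Cox6a1 (right) in log2 GCRMA intensity at 0.5, 2, 6 and 24 h, 1 array per point, on axes of equal span. Cox6a2 reads 7.10 with BayK8644 and 7.06 with both agents at 24 h, and 4.33 and 4.32 without BayK8644, while Cox6a1 lies between 15.74 and 15.88 throughout.

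Over all times, limma with time as a block and both agents in the model called 1 member higher with BayK8644 and 0 lower, against 8.53% of all genes tested. The member was Cox6a2, at 1.04 ± 0.30 (adjusted p = 0.0499). That call held in 3 of 16 fits that left out an array, those without the 0.5 h array of DMSO, exendin-4 or the combination, and BayK8644 alone against DMSO gave 0.99 with an adjusted p of 0.345. A further 2 members had the next smallest p-values, Uqcrb (0.08, adjusted p = 0.0550) and Cox5a (0.07, adjusted p = 0.0982). Without the combination array of 0.5 h, 6 members were called higher, namely Cox5a, Cox6a2, Ndufa8, Ndufs4, Uqcrb and Uqcrq, and 2021 of 10609 genes were called in that fit.

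By time, the counts of members called higher with BayK8644 were 0 at 0.5 h, 0 at 2 h, 1 at 6 h and 2 at 24 h, and none was called lower. Of all genes tested, 0.217% were called at 0.5 h, 1.63% at 2 h, 2.47% at 6 h and 5.1% at 24 h. At unadjusted p under 0.05, limma had 0, 3, 2 and 10 members at 0.5, 2, 6 and 24 h. Of all 10609 genes, 218, 1273, 1585 and 2384 met it. In the model over all times 8 members met it, against 2803 genes. The members with the smallest p at 0.5 h were Ndufv1 (-0.09), Uqcrb (0.09) and Ndufb6 (-0.10), each with an adjusted p close to 1. At 2 h they were Cox7c (0.68, adjusted p = 0.287), Sdhc (-0.21, adjusted p = 0.321) and Cox7a1 (0.28, adjusted p = 0.402). On the other Cox7c probe set above the filter the difference at 2 h was 0.02. The difference in the effect between 24 and 0.5 h was called for Cox6a2 alone among the members, against 0.98% of all genes.

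The other member called at 24 h was Uqcrq, a small subunit of complex III. It read 14.09 with DMSO, 14.29 with BayK8644, 14.21 with exendin-4 and 14.51 with both agents at 24 h. At 0.5 h the values were 14.05, 14.10, 14.07 and 14.04, and at 6 h 14.13, 14.13, 14.19 and 14.30. Each array with an agent was above DMSO at 24 h, and the combination was highest. The rise with BayK8644 was 0.25 ± 0.05 (1.19-fold, adjusted p = 0.0321, limma). The call was lost in 10 of 16 fits that left out an array, those without any array of 0.5 or 2 h or without the exendin-4 or combination array of 24 h, where the adjusted p reached 0.239. The effect at 24 h exceeded that at 0.5 h by 0.24 ± 0.08 (adjusted p = 0.191). The other probe sets of Uqcrq lay between 0.99 and 2.75 on all arrays, below the filter, so the call rests on 1 probe set.

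Small differences ran mostly one way at 24 h across the complexes. With BayK8644, 54 of 58 members were higher at 24 h, against 5477 of 10609 genes, with a median of 0.08 against 0.01. The counts were 32 of 34 in complex I, 3 of 4 in complex II, 8 of 8 in complex III and 11 of 12 in complex IV, with medians of 0.08, 0.09, 0.11 and 0.11. The shift was not confined to the subunits. At 24 h 18 of 18 ATP synthase and 70 of 76 mitochondrial ribosomal protein genes were higher, with medians of 0.09 and 0.17. Of citric acid cycle genes 9 of 19 were higher (median -0.04), and of regulators of mitochondrial genes 9 of 26 (median -0.03). At 0.5, 2 and 6 h, 23, 35 and 46 members were higher, with medians of -0.01, 0.02 and 0.05, against 0.01, -0.01 and 0.01 over all genes. With each array left out in turn, the median at 0.5 h ran from -0.06 to 0.03 and that at 24 h from 0.01 to 0.18. Genes are not replicates, so these counts describe 4 arrays at each time, and the SE of a single member was of like size (0.05 for Uqcrq).

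The shift at 24 h stood in the pair of arrays with exendin-4, more than in the pair without it, and this difference between the pairs was not tested. In the pair without exendin-4, BayK8644 minus DMSO, 33 of 58 members were higher, with a median of 0.01. Over all genes 42.0% were higher, with a median of -0.03. By over 0.2, 2 members (3.45%) were higher, against 10.1% of all genes. In the pair with exendin-4, the combination minus exendin-4, 56 of 58 members were higher, with a median of 0.18. Over all genes 57.5% were higher, with a median of 0.05. By over 0.2, 25 members (43.1%) were higher, against 30.3% of all genes. Each of these is 1 array against 1 and has no replicate. The combination minus DMSO gave a median of 0.14, with 54 of 58 higher and 19 (32.8%) by over 0.2. Over all genes the median was 0.02, with 53.2% higher. The share over 0.2 was 22.1% of all genes and 17.4% of the genes with a mean level of 12 or more. Exendin-4 minus DMSO gave a median of -0.02, with 21 of 58 higher, against -0.04 and 38.3% over all genes. The combination comparisons share an array, so their counts are not independent.

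The combination array of 24 h was the highest of all 16 arrays for 33 of the 58 members, while 19.4% of all genes had their highest value there. The exendin-4 array of 24 h was the lowest for 10 members, and the DMSO array of 6 h for 9. The DMSO array of 0.5 h and the BayK8644 array of 2 h were lowest for 7 each, and the combination array of 0.5 h for 6. The share of all genes lowest on each of the 16 arrays was not counted, so these counts have no background. The 3' minus 5' difference of Actb was 0.77 on the combination array of 24 h, 0.69 on exendin-4, 0.66 on BayK8644 and 0.66 on DMSO, and the 75th percentile of intensity was 540, 538, 524 and 543. The part of these in the shift was not tested.

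Members with the widest gap in that pair came from several complexes, and Uqcr10, Ndufa7 and Ndufa8 are named here after their values were seen. Uqcr10, a small complex III subunit, read 12.56 with DMSO, 12.65 with BayK8644, 12.44 with exendin-4 and 13.09 with both agents at 24 h. Uqcrh, the hinge protein, read 13.98, 13.97, 13.77 and 14.28 in the same order. Sdhb read 12.49, 12.57, 12.33 and 12.73. In all 3 the exendin-4 array was lowest and the combination highest, which the choice of members with a wide gap favours. Ndufa8, an accessory subunit of complex I, read 12.75, 12.81, 12.59 and 13.07, and Ndufa7, another, read 13.13, 13.06, 12.94 and 13.41. Of the complex IV members, Cox4i1 read 14.84, 14.82, 14.76 and 15.05, Cox5b, the zinc-binding subunit, 14.27, 14.25, 14.20 and 14.49, and Cox8a, a small membrane subunit, 12.07, 12.08, 11.996 and 12.36. Over all 58 members, 23 (39.7%) had the exendin-4 array of 24 h lowest and the combination highest, against 22.6% of all genes tested. They were 12 of 34 in complex I, 3 of 4 in complex II, 4 of 8 in complex III and 4 of 12 in complex IV. Of the 4 arrays of 24 h, exendin-4 was lowest in 31 members, against 3817 of 10609 genes. DMSO was lowest in 16 members and BayK8644 in 11, against 1689 and 2704 genes. Among the 11 were Cox6a1, Cox7a1, Cox7a2 and Cox7c. Cox6c, with DMSO lowest, was highest with exendin-4.

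With DMSO or BayK8644 taken out at 24 h, the model was left with the exendin-4 pair alone at that time, and 14 members were called higher, 24.1% of the 58, against 13.8% of all genes in either fit. They were Cox6a2, Uqcrq, Uqcr10, Uqcrh, Ndufa7, Ndufa8, Ndufb2, Ndufb8, Sdhb, Sdhc, Cox4i1, Cox5b, Cox7a2l and Cox8a. With the 24 h array of exendin-4 or of the combination left out, only the BayK8644 and DMSO pair remained and Cox6a2 was the 1 member called. With 3 arrays left at 24 h that time adds no residual, so the spread behind these calls came from 0.5, 2 and 6 h alone. In the model with all 16 arrays the members' residuals had a root mean square of 0.04, 0.02 and 0.03 at those times and 0.06 at 24 h, the time the spread leaves out.

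**Figure D3:**
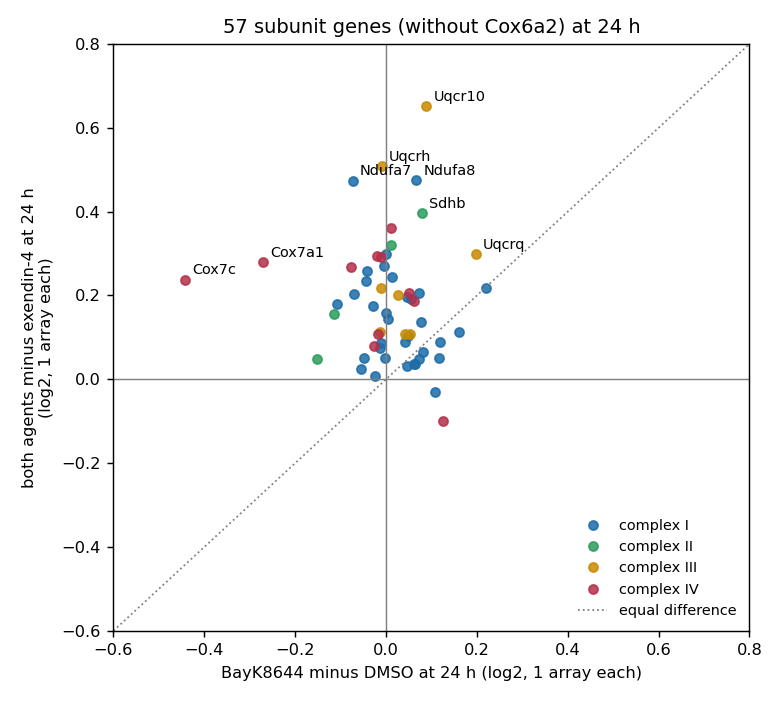
Difference at 24 h for 57 members (without Cox6a2) in the pair of arrays with exendin-4 (vertical, combination minus exendin-4) and in the pair without it (horizontal, BayK8644 minus DMSO), in log2, 1 array each, coloured by complex. Most points lie above the dotted line of equal difference, and Uqcr10 is highest at 0.65 against 0.09.

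The test of whether the agents add up was the interaction over all times, and it called 0 of 58 members and 0% of all genes in limma. At unadjusted p under 0.05 there were 2 members, against 710 of 10609 genes. The smallest p-values belonged to Cox6a1 (0.11 ± 0.05, adjusted p = 0.734), Ndufb6 (-0.14 ± 0.06, adjusted p = 0.736), a complex I membrane subunit, and Uqcrfs1 (0.12 ± 0.05, adjusted p = 0.745). No interaction could be tested at a single time, since each treatment had 1 array there.

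**Figure D4:**
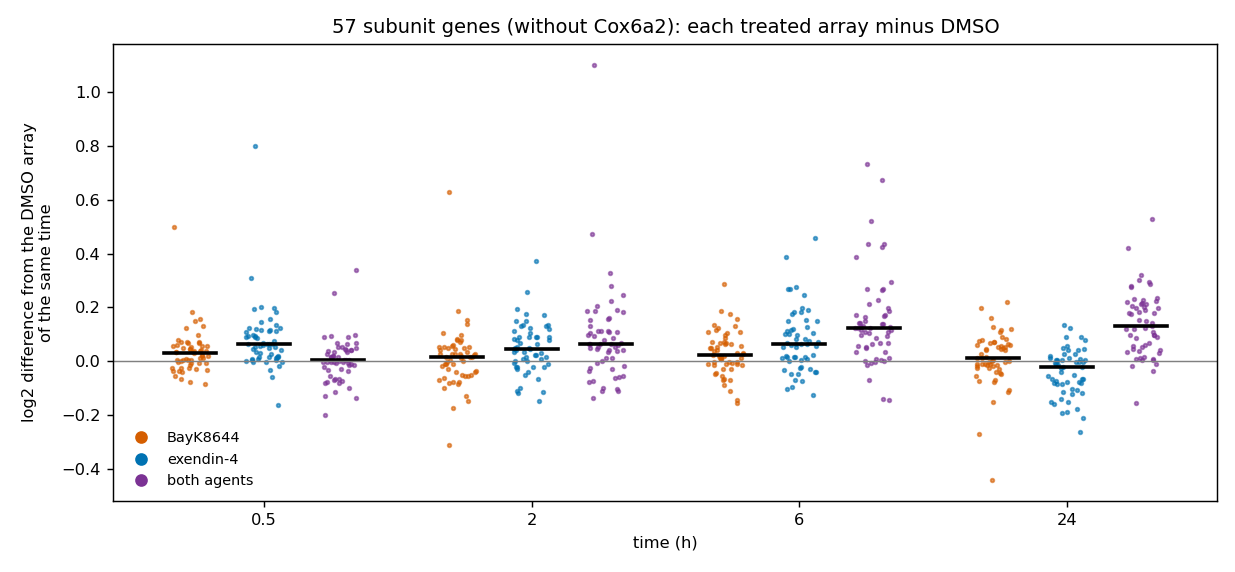
Difference of each treated array from the DMSO array of the same time for 57 members (without Cox6a2), in log2, 1 dot per gene with the median as a black line. The medians for the combination at 6 and 24 h lie near 0.12 and 0.13, while the other medians lie between -0.02 and 0.06.

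Exendin-4 gave no called member. Over all times, limma called 0 of 58 members and 0% of all genes, with 22 members at unadjusted p under 0.05, against 1317 of 10609 genes. The smallest p belonged to Cox7a1, at 0.26 ± 0.06 (adjusted p = 0.153). Cox7a1 read 10.07, 9.93, 9.89 and 10.29 with DMSO at 0.5, 2, 6 and 24 h and 10.15, 10.12, 9.90 and 10.02 with BayK8644. With exendin-4 it read 10.27, 10.03, 10.35 and 10.23, and with both agents 10.33, 10.40, 10.32 and 10.51. At 0.5 and 6 h both arrays with exendin-4 were above both without it, and at 2 and 24 h an array without it was above the exendin-4 array.

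Ndufs4, an accessory subunit at the NADH-oxidising end of complex I, differed by 0.18 ± 0.04 (adjusted p = 0.153). It read 12.06, 11.98, 11.93 and 12.06 with DMSO and 12.13, 12.09, 12.10 and 12.06 with BayK8644. With exendin-4 it read 12.25, 12.24, 12.20 and 12.07, and with both agents 12.12, 12.31, 12.31 and 12.37. Without the combination array of 0.5 h, Ndufs4 was called higher, at 0.21 with an adjusted p of 0.0386 (limma), 1 of 34 genes called in that fit. Ndufb2, a small complex I subunit, differed by 0.12 ± 0.03 (adjusted p = 0.167) and Cox7a2 by 0.09 ± 0.02 (adjusted p = 0.167). With exendin-4, 51 of 58 members were higher over all times, against 6216 of 10609 genes, with a median of 0.05 against 0.02. By complex the counts were 29 of 34, 4 of 4, 7 of 8 and 11 of 12, and the arrays with both agents enter this comparison and that of BayK8644.

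At single times exendin-4 called 0 of 58 members in each of the 4 tests, against 0.00943% of all genes at 0.5 h, 0.0189% at 2 h, 0% at 6 h and 0% at 24 h. At unadjusted p under 0.05 there were 1, 5, 12 and 2 members, against 200, 588, 738 and 626 of 10609 genes. Median differences were 0.02, 0.06, 0.08 and 0.04, against 0.01, 0.02, 0.01 and 0.01 over all genes. With each array left out in turn the median ran from -0.02 to 0.06 at 0.5 h and from -0.02 to 0.12 at 24 h, so it has no settled sign at these times. At 0.5 h the smallest p was that of Ndufa10 (-0.20, adjusted p close to 1), an accessory subunit, followed by Uqcrc2 (-0.08) and Cox7a1 (0.19). At 2 h it was Uqcrc1 (0.22), followed by Ndufs4 (0.24) and Cox7a2 (0.14), each with an adjusted p of 0.777. At 6 h Cox6a2 (0.52), Cox7a1 (0.44) and Uqcrh (0.36) had an adjusted p of 0.688. The Cox6a2 value there joins 0.33 for exendin-4 minus DMSO and 0.71 for the combination minus BayK8644.

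At 24 h the smallest p was that of Uqcrc2, at -0.24 ± 0.05 (adjusted p = 0.746, limma). Uqcrc2 read 14.49 with DMSO, 14.54 with BayK8644, 14.23 with exendin-4 and 14.33 with both agents at 24 h. Both arrays with exendin-4 were below both without it. At 2 h it read 14.34, 14.49, 14.22 and 14.31 in the same order, and at 6 h 14.25, 14.38, 14.43 and 14.41. The difference of the exendin-4 effect between 24 and 0.5 h called 0 members, against 0.00943% of all genes. At unadjusted p under 0.05 it had 2 members, against 413 of 10609 genes. The smallest p-values were those of Ndufa10 (0.22), Uqcrq (0.19) and Uqcrc2 (-0.15), each with an adjusted p of 0.998.

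Between times, over all treatments, the subunit genes moved little. From 0.5 to 2 h limma called 0 members, against 4.68% of all genes. At unadjusted p under 0.05 there was 1 member, against 2308 of 10609 genes. From 2 to 6 h limma called 0 members, against 0.405%, again with 1 at unadjusted p under 0.05, against 1525 genes. From 6 to 24 h it called 1 higher and 0 lower, against 13.2% of all genes. Median differences of the members were 0.01 (from -0.03 to 0.02 with each array left out), 0.02 and 0.03 for the 3 steps, which share the arrays of the times between them.

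The member called from 6 to 24 h was Ndufv3, an accessory subunit next to the NADH-binding site. It read 13.35, 13.30, 13.31 and 13.35 at 6 h with DMSO, BayK8644, exendin-4 and both agents. At 24 h it read 13.39, 13.44, 13.44 and 13.54, so each array of 24 h was above each array of 6 h. The rise was 0.12 ± 0.04 (1.09-fold, adjusted p = 0.0348, limma). The call was lost without the BayK8644 array of 6 or 24 h, the exendin-4 array of 6 h, or the combination array of 6 or 24 h, with an adjusted p of up to 0.121.

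Cox7c had the smallest p from 0.5 to 2 h, at -0.39 ± 0.18 (adjusted p = 0.229), followed by Uqcrb (0.06) and Ndufb10 (-0.06). It read 5.42, 4.91, 5.14 and 5.14 with DMSO at 0.5, 2, 6 and 24 h, 5.92, 5.54, 5.21 and 4.70 with BayK8644, 6.21, 5.28, 5.31 and 5.06 with exendin-4, and 5.75, 6.01, 5.87 and 5.29 with both agents. On this probe set, the brighter of Cox7c, the 0.5 h array was highest in 3 of 4 treatments. From 2 to 6 h the smallest p-values were those of Uqcrc1 (0.11, adjusted p = 0.328), Ndufv1 (0.06) and Ndufs8 (0.06), an iron-sulphur subunit.

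Around the chain, genes that build the complexes come first. Of 37 assembly factors tested, 2 (5.41%) rose with BayK8644 over all times and 0 fell, against the 8.53% of all genes called, with a median of 0.07 against 0.01. Sco2, a copper chaperone for complex IV, rose by 0.55 ± 0.08 (1.46-fold, adjusted p = 0.00117, limma) and Ndufaf4, a complex I assembly factor, by 0.14 ± 0.04 (adjusted p = 0.0496). At 24 h Sco2 rose by 0.84 ± 0.17 (adjusted p = 0.0241, limma), the 1 called of the 37 (2.7%, against 5.1% of all genes). At that time 35 of the 37 were higher and their median was 0.13. From 6 to 24 h 3 rose, Sco2 (0.60), Sdhaf4 (0.19) and Cox20 (0.17), and 1 fell, Cox10 (-0.22), a haem synthesis enzyme, together 10.8% against 13.2% of all genes. Whether assembly factors and subunits differ was not tested.

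Of 18 ATP synthase genes, 0 were called with BayK8644 over all times, and 17 were higher, with a median of 0.04. At unadjusted p under 0.05 limma had 3 of them, against 2803 of 10609 genes. Of 76 mitochondrial ribosomal protein genes, 4 (5.26%, against 8.53%) rose (Mrps22, Mrpl39, Mrps18c and Mrps12, by 0.11 to 0.16) and 0 fell, with a median of 0.07. Of the 76, 69 were higher, against 5589 of 10609 genes. Of 13 genes for cytochrome c and other electron entry routes, 0 were called, with 0 at unadjusted p under 0.05 and a median of 0.05. Of 19 citric acid cycle genes, Idh3a rose by 0.14 and Suclg2 fell by 0.17 (10.5% called, against 8.53% of all genes). At 24 h Pcx, pyruvate carboxylase, fell by 0.28 ± 0.07 (adjusted p = 0.0431, limma). It was the 1 called of the 19 (5.26%, against 5.1% of all genes). No gene of these lists was called with exendin-4 over all times. There unadjusted p under 0.05 was met by 7 ATP synthase, 23 ribosomal, 2 electron entry, 2 citric acid cycle and 9 assembly genes. Of all genes, 1317 of 10609 met it.

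Among 26 regulators of mitochondrial genes, Ppargc1a, the coactivator PGC-1alpha, read 5.76 with exendin-4 and 5.54 with both agents at 2 h, and between 3.42 and 4.29 on the other 14 arrays. It reached the filter level of log2 4 on these and on the combination arrays of 6 and 24 h only (4.16 and 4.29), so it passed the filter through arrays with exendin-4, and no test is given for it. Over all times limma called 2 of the 26 (7.69%) with BayK8644, against 8.53% of all genes. Pprc1, a related coactivator, rose by 0.11 ± 0.03 (adjusted p = 0.0494). Tfam, the mitochondrial transcription factor, fell by 0.11 ± 0.03 (adjusted p = 0.0267). From 0.5 to 2 h Pprc1 rose by 0.49 ± 0.04 and Tfb1m, a mitochondrial ribosomal RNA methyltransferase, fell by 0.37 ± 0.07, in all treatments together. These were 7.69% of the regulators, against 4.68% of all genes. From 6 to 24 h 4 (15.4%) were called, against 13.2% of all genes. Pprc1 fell by 0.21 and Crtc2 by 0.37 in that step, and Esrra rose by 0.34 and Mterf3 by 0.17. The Esrra rise was larger on the arrays with BayK8644. At 6 and 24 h it read 8.02 and 8.22 with DMSO and 8.03 and 8.59 with BayK8644. With exendin-4 it read 8.02 and 8.16, and with both agents 8.23 and 8.68. Its difference with BayK8644 at 24 h was 0.44 and was not called. Nrf1 and Gabpa, the factors whose motifs are named above, lay between 8.39 and 8.75 and between 10.52 and 11.17.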

How the data were processed

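RNA of R7T1 cells, 1 sample for each of 4 treatments and 4 times, was hybridised to 16 1-colour Affymetrix arrays of 45101 probe sets. The authors' deposited intensity values are on a linear scale and come from GCRMA, per the submitters' processing notes. GCRMA subtracts a background predicted from probe sequence, gives all arrays the same distribution and fits 1 value per probe set. Equal distributions can hide a shift shared by many genes. No source used here states its version. Log2 was taken with no pseudocount.

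Genes were named from the platform annotation, for the 34958 probe sets with 1 symbol (932 had several and 9211 none). The probe set with the highest mean stood for a gene, and it was kept where it reached log2 4 (intensity 16) on at least 2 arrays. All 65 member symbols matched RefSeq, and 35 members had more than 1 probe set above the filter.

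limma 3.58.1 (R 4.3.3; lmFit, eBayes with trend) gave the models, with Benjamini-Hochberg adjustment over 10609 genes and a threshold of 0.05. The code was also run on simulated data with known changes and independent noise of equal spread at all times. That run checks the code and not the calls on these arrays. The model over all times held time, both agents and their interaction (9 residual degrees of freedom). The model by time held an effect of each agent at each time, added together (4 residual degrees of freedom). Its spread was pooled over times.

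The members and lists were chosen with earlier results of these data known. Members given with single values were those past the threshold (at most 10 in a comparison), the 3 with the smallest p where none passed, a fixed set of main subunits and isoforms, and those with the 3 highest and lowest levels or widest ranges. Alternatives were the filter, a floor at log2 4, median centring, a repeated quantile normalization, no trend, all probe sets, each array or time left out, and each agent alone against DMSO. The number of arrays limits the precision. Ins1 and Mafa, fixed as beta-cell markers, were not analysed here.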

Additional observations from a re-analysis of the deposited data

Results flagged for a closer look

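The effect of BayK8644 on Cox6a2 differed between times, at 2.59 (log2) more at 24 h than at 0.5 h by limma's test of the difference.

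Within a treatment, the array of a single time lay far from the other 3 in 6 of 140 checks over 35 members, by Dixon's test for a gap, and chance alone gives about 1 in 20. The 4 arrays of a treatment differ in time, so such a gap can be a change with time. Cox5b read 14.26 with exendin-4 at 0.5 h, against 14.20 to 14.21 at the other times. Cox6a1 read 15.86 with DMSO at 6 h, against 15.75 to 15.77. Cox7a2l read 12.58 with DMSO at 24 h, against 12.49 at the other times, and 12.40 with exendin-4 at 24 h, against 12.56 to 12.57. Uqcrb read 14.12 with DMSO at 0.5 h, against 14.20 to 14.21. Uqcrc1 read 12.42 with DMSO at 6 h, against 12.29 to 12.30.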

How the results depend on the processing

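Of 16 comparisons, 9 gave 0 called members under every alternative, and the sign of the members' median difference stayed under median centring and repeated quantile normalization in all 16. Leaving out 1 array turned that sign in 5 of 16: BayK8644 at 0.5 h, exendin-4 at 0.5 h and 24 h, its effect at 24 against 0.5 h (-0.07 to 0.11), and 2 against 0.5 h. With BayK8644 over all times, where 1 member was called, 0 were called with no filter, with the floor, without the trend, with all probe sets, with the agent alone against DMSO, and without the arrays of 2, 6 or 24 h, while 4 were called without those of 0.5 h (Cox5a, Cox6a2, Ndufs4 and Uqcrq, among 2076 genes in all). At 24 h, where 2 were called, 1 was called without the trend, 1 with all probe sets and 3 with median centring, which added Ndufa13 (0.22, adjusted p = 0.0393, limma) and called 719 genes in all. From 6 to 24 h, where 1 was called, 0 were called with no filter, 0 without the trend and 3 with all probe sets: Ndufv3 and a probe set of Sdha rose, and another probe set of Ndufs4 fell by 0.57. From 0.5 to 2 h, 1 was called with all probe sets, another probe set of Ndufab1 that rose by 1.30. With each array left out in turn, the counts ran from 0 to 6 with BayK8644 over all times, 0 to 1 with exendin-4 over all times, 0 to 4 from 6 to 24 h (4 without the exendin-4 array of 24 h, namely Ndufv3, Ndufb6, Cox7a2l and Cox6a2), 0 to 1 with BayK8644 at 6 h, 1 to 14 at 24 h and 1 to 7 for the effect at 24 against 0.5 h (7 without the DMSO or BayK8644 array of 24 h, beside 757 and 755 genes in all). The cause was not tested. The Cox6a2 rise at 24 h was called in all 16 of these fits, with an adjusted p between 0.000135 and 0.00170 (limma), and under the 6 other settings. Levels rest on the probe set chosen: in 35 members with a further probe set above the filter, it read lower by a median of 0.64, and by over 5 in 2 members. No paired analysis was possible because the labels carry no replicate numbers, and time was the block.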
